A study of Mus musculus with 12 samples.

Results

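The comparison described here was that of bone marrow-derived macrophages (BMDMs) labelled PHD2cko with BMDMs labelled WT. It used the 6 macrophage libraries, 3 in each group, of the 12 libraries in the series, and the groups were taken from the sample labels. Both groups carried LysMCre, a Cre recombinase driven by the lysozyme M gene, and those labelled PHD2cko in addition carried the conditional deletion of PHD2. Bone marrow cells had been differentiated in RPMI with L929-conditioned medium as the source of M-CSF, and RNA was taken 24 h after seeding. The libraries were given as triplicates, and nothing stated that they came from separate animals, so the p-values measured the spread between these libraries, which may be technical. The oxygen condition of the sequenced cultures was not named.

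PHD2, encoded by Egln1, is an oxygen-dependent prolyl hydroxylase that marks the alpha subunits of the hypoxia-inducible factors (HIFs) for degradation. Its loss is known to stabilise HIF in normal oxygen and to raise glycolytic genes in macrophages. Macrophages also take up lipids and debris, degrade them in lysosomes, read their surroundings through lectins and paired receptors, and adjust amino acid supply and protein folding through stress pathways. These latter functions, outside the HIF, glycolysis, cell cycle, interferon and MHC gene lists, were the main subject of the comparison.

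Egln1 (chromosome 8, 124908587 to 124949324 on GRCm38) was read at 50.5, 49.5 and 50.5 CPM (counts divided by the scaled size of the library) in the WT libraries and at 62.5, 62.4 and 64.4 CPM in the libraries labelled PHD2cko. Its level was therefore higher in all 3 libraries with the label of the deletion (log2 fold change 0.33, SE 0.0389, adjusted p = 2.37e-05, quasi-likelihood test of edgeR, adjusted by Benjamini and Hochberg). The deposited value sums all exons of a gene, so a deleted part could not be seen and this value does not check the label. For that reason the second group is called "labelled PHD2cko", and "rose" and "fell" mean higher or lower in those libraries. In counts of genes, only those with an adjusted p under 0.05 are counted as having risen or fallen. Lyz2, the lysozyme M gene into which LysMCre is inserted in the usual strain, fell from 15169, 14425 and 15081 CPM to 10387, 10338 and 10919 CPM (log2 fold change -0.50, SE 0.0241, adjusted p = 3.64e-09, edgeR), a call lost in the fit of all 12 libraries. Values with ± are means and SD of 3 libraries. The Y-linked Ddx3y, Eif2s3y, Kdm5d and Uty were expressed in all 6 libraries.

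The libraries held from 15953423 to 21221219 counts, and 3 counts corresponded to between 0.141 and 0.188 CPM. Within each group, no pair of libraries agreed within sampling noise, since the chi-square per degree of freedom ran from 1.99 to 8.42, and the highest values involved replicate 3 labelled PHD2cko. All 10 macrophage markers were expressed. Their summed level was 24300 to 25400 CPM in WT and 20100 to 21100 CPM in libraries labelled PHD2cko, with Adgre1, Cd68 and Mrc1 called higher and 4 called lower, among them Lyz2, Csf1r and Fcgr1. All 6 of these named genes lost their calls in the fit of all 12 libraries. Defining genes of neutrophils (Ly6g, Elane, Retnlg), B cells (Pax5), T cells and NK cells (Cd3e, Ncr1), basophils (Mcpt8) and osteoclasts (Calcr) were at 0 in all 6 libraries. Other genes of the same lists had counts, with Cxcr2 at 33 to 49, S100a8 at 4 to 11, Cd3d at 3 to 10, Kit at 4 to 6 in WT and 8 to 13 in libraries labelled PHD2cko, and Cpa3 at 1 to 3 and 3 to 11. In WT and in libraries labelled PHD2cko, the 10 neutrophil markers summed to 3.07 to 3.58 and 2.81 to 3.14 CPM, the 6 T and NK cell markers to 0.353 to 0.609 and 0.312 to 0.897 CPM, and the 5 mast cell and basophil markers to 0.353 to 0.830 and 0.827 to 1.23 CPM. The 8 osteoclast markers summed to 149 to 166 CPM in WT and 245 to 265 CPM in libraries labelled PHD2cko, and Atp6v0d2, Dcstamp and Mmp9 were the 3 called higher. Nearly all of this sum was Atp6v0d2, and the other 7 markers summed to 24.5 to 29.4 CPM in WT and 31.7 to 32.3 CPM in libraries labelled PHD2cko, with Ctsk, Acp5 and Ocstamp not called. The 7 fibroblast markers summed to 0.830 to 3.67 CPM in WT and 2.78 to 3.68 CPM in libraries labelled PHD2cko, with none called. The 5 B cell markers summed to 2.29 to 2.82 CPM in WT and 3.45 to 4.25 CPM in libraries labelled PHD2cko, through Cd79b, a call lost by the DESeq2 Wald test and in the fit of all 12 libraries. In such bulk libraries, fewer cells of a type and less RNA per cell cannot be told apart.

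Of 12282 genes tested, 1202 were higher (9.79%) and 1332 lower (10.8%) in the libraries labelled PHD2cko, so that 20.6% passed an adjusted p of 0.05 in either direction. Most differences were small. The median absolute log2 fold change of the called genes was 0.247, and only 72 higher and 87 lower genes reached a 2-fold difference. The median over all genes was 0.0048, and the groups did not overlap for 36.1% of genes. Genes named below for the size of their change were required not to overlap, so their separation is only described. Of the called genes, 2253 stood outside the HIF, glycolysis, cell cycle, interferon and MHC lists, 1066 of them higher and 1187 lower. In a fit of all 12 libraries of the series, 483 genes were higher and 478 lower. Family counts shrank with them: of 71 counts of at least 4 members described below, 57 were smaller by over 1.5 times in that fit and 0 larger by as much.

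**Figure D1:**
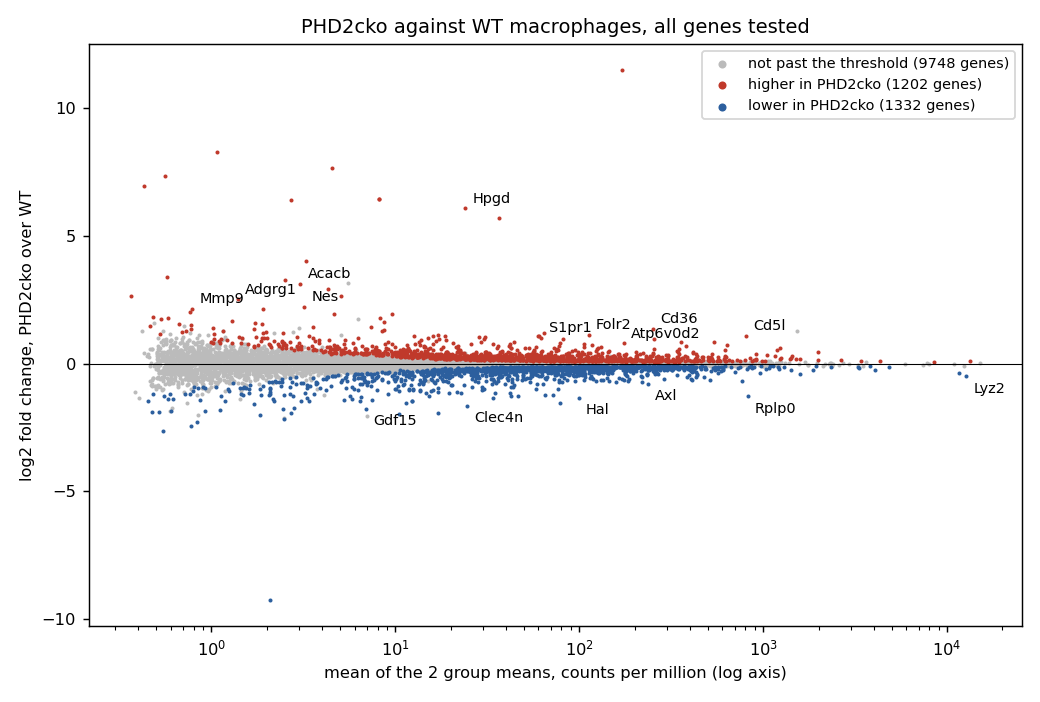
Each point is 1 of the 12282 genes tested, with the mean of both group means in CPM on a log axis and the log2 fold change of libraries labelled PHD2cko over WT, red where higher and blue where lower at an adjusted p of 0.05. Most of the 1202 higher and 1332 lower genes lie within 1 log2 unit of 0, while Hpgd and Acacb stand far above, and the unlabelled points above Hpgd and far below 0 are processed pseudogenes and immunoglobulin genes.

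Of the 70 gene lists examined outside the excluded ones, that of protein folding in the endoplasmic reticulum (ER) had the highest share of called members. Of 23 tested chaperones and regulators of the ER and its unfolded protein response (UPR), 19 fell and 0 rose, against 10.8% and 9.79% of all genes. All 23 had a log2 fold change below 0, with a median of -0.20 against 0.0048 for all genes. Genes of the UPR raise the folding and degradation capacity of the ER when unfolded proteins accumulate.

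**Figure D2:**
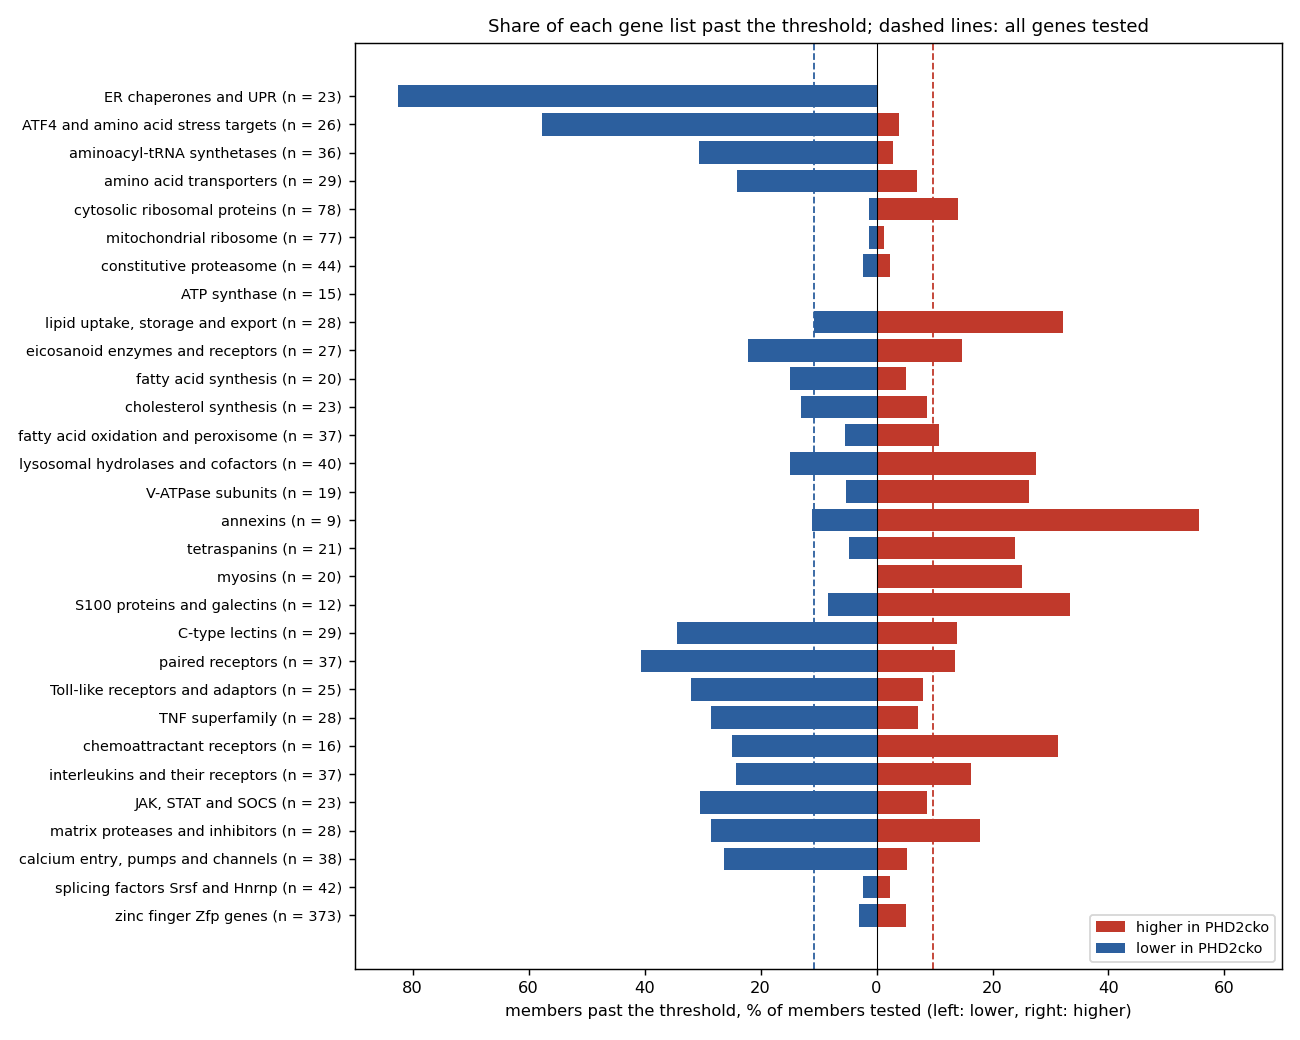
Bars give the percentage of tested members of 30 gene lists that were lower (left, blue) or higher (right, red) in libraries labelled PHD2cko, with the number tested in brackets. Dashed lines mark the 10.8% of all genes that were lower and the 9.79% that were higher, and the bar of the ER chaperones reaches 82.6% on the lower side.

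Hspa5, which encodes the central ER chaperone BiP, was at 667, 642 and 638 CPM in WT and at 532, 534 and 520.3 CPM in libraries labelled PHD2cko. The groups did not overlap, and the difference was small but well above the spread (log2 fold change -0.30, SE 0.0304, adjusted p = 6.54e-06, edgeR with Benjamini-Hochberg adjustment). Hyou1, a BiP cofactor first described as induced by low oxygen, fell from 121, 110.2 and 109 CPM to 85.2, 82.8 and 80.1 CPM (log2 fold change -0.46, SE 0.0425, adjusted p = 2.54e-06, edgeR). Xbp1, the transcription factor spliced in the UPR, fell from 198 ± 8.25 to 155 ± 9.27 CPM (log2 fold change -0.35, SE 0.0416, adjusted p = 2.65e-05, edgeR), with spliced and unspliced forms not separated in these counts. Pdia3, a disulfide isomerase of glycoprotein folding, fell by little (416 ± 3.80 to 365 ± 1.65 CPM, log2 fold change -0.19). The count of lower members was 12 in the fit of all 12 libraries and 17 without genes of chromosome 8.

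The ER stress response element, the sequence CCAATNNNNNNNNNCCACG bound by ATF6 together with NF-Y, was looked for on both strands in the 250 bases before each RefSeq start site (GRCm38.p6). It was present in 37 of 32851 promoters (0.113%) and in 8 of the 20 list members with a promoter sequence, namely Calr, Canx, Creld2, Dnajc3, Hsp90b1, Hspa5, Pdia6 and Syvn1. This is a description of letters in these windows, as the list was made of genes of this response. The promoters of the 3 holders with the smallest p are shown to let the element be compared between them, with its match in capitals, and they were picked after their values were seen.
Hspa5, chr2:34771840-34772089, + strand: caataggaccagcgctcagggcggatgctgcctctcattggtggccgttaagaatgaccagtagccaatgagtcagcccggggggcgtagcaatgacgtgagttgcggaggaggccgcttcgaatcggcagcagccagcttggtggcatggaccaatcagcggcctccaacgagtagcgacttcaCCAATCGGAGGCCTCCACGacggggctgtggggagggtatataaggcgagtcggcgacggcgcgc
Canx, chr11:50325674-50325923, - strand: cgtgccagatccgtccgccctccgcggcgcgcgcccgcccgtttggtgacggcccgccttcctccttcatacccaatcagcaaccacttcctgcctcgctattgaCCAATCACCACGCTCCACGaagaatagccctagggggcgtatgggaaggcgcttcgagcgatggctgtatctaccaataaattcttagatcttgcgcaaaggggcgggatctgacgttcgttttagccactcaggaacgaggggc
Calr, chr8:84846932-84847181, - strand: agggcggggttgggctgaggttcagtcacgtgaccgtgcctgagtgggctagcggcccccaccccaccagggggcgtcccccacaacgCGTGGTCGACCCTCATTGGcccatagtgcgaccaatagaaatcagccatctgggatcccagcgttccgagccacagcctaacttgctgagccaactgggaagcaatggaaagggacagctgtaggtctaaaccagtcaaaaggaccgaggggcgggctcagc

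The match began 65 bases before the start of Hspa5, 145 before that of Canx and 162 before that of Calr, where it lay on the opposite strand. Beside Hspa5, Canx, a lectin chaperone of the ER membrane, fell from 589 ± 10.96 to 508 ± 4.75 CPM (log2 fold change -0.21), and Calr, its soluble counterpart, from 591 ± 5.21 to 516 ± 8.49 CPM (log2 fold change -0.20). Of the 8 holders, 7 fell and Creld2 did not pass the threshold. Of 16 heat shock proteins of the cytosol, 18.8% were called, close to the 20.6% of all genes: 3 rose (Hsp90aa1, log2 fold change 0.29, Hsph1, 0.31, and Hsp90ab1, 0.13) and 0 fell, while 10 had a log2 fold change above 0. Hsp90ab1 lost its call in the fit of all 12 libraries.

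Targets of ATF4 also fell more often than they rose. ATF4 is the transcription factor through which cells answer a shortage of amino acids or ER stress. In a list of 26 of its targets and partners, 15 fell and 1 rose, with a median log2 fold change of -0.27. Atf4 itself, whose protein is controlled largely at translation, fell from 143 ± 3.80 to 118 ± 1.90 CPM (log2 fold change -0.27), although it stood outside the 4 genes named by rule and was chosen after its values were seen.

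Mthfd2, an enzyme of mitochondrial folate metabolism, was at 39.6, 40.7 and 36.4 CPM in WT and at 20.3, 20.6 and 20.6 CPM in libraries labelled PHD2cko, that is 1.90-fold lower (log2 fold change -0.93, SE 0.0550, adjusted p = 2.76e-08, edgeR). Slc7a5, which encodes the large neutral amino acid transporter LAT1, fell from 10.5, 8.49 and 9.47 CPM to 3.64, 3.43 and 3.21 CPM (log2 fold change -1.47, SE 0.126, adjusted p = 1.08e-06, edgeR). In both genes every library labelled PHD2cko was below every WT library. Slc7a5 lies on chromosome 8, as Egln1 does, and 14 members of the list fell without genes of that chromosome. Atf5, a transcription factor downstream of ATF4, fell from 59.9 ± 3.16 to 38.2 ± 2.44 CPM (log2 fold change -0.65, SE 0.0538, adjusted p = 6.99e-07, edgeR). Phgdh and Asns, which make serine and asparagine and were chosen after their values were seen, fell from 9.35 ± 1.499 to 3.73 ± 0.424 CPM (log2 fold change -1.32) and from 20.2 ± 0.740 to 12.3 ± 1.03 CPM (-0.72). The exception was Atf3, a stress-induced member of the same family, which rose from 179, 181 and 183 CPM to 233, 237 and 225 CPM (log2 fold change 0.35, SE 0.0284, adjusted p = 5.13e-07, edgeR). The call of Atf3 was lost in the fit of all 12 libraries, where 11 members were lower.

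The amino acid response core TTGCATCA, bound by ATF4 with C/EBP partners, was present on either strand in 260 of 32851 promoters (0.791%) and in 5 of the 23 list members with a promoter sequence: Atf3, Chac1, Nupr1, Pycr1 and Slc7a11. The promoters of Atf3, which rose, and of Nupr1, a small nuclear stress protein that fell, are given with the core in capitals, since the same letters stood 110 bases before the start in both.
Atf3, chr1:191183334-191183583, - strand: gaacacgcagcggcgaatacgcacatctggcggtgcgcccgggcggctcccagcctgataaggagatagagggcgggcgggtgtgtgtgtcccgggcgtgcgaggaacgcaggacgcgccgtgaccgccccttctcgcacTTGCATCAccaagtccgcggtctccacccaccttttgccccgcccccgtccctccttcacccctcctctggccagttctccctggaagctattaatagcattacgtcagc
Nupr1, chr7:126625471-126625720, - strand: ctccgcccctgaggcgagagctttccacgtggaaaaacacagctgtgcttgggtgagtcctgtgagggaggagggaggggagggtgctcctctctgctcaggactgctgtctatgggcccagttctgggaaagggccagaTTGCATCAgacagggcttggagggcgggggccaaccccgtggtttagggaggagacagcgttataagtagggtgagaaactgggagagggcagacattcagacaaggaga

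Nupr1 fell from 17.7, 17.6 and 17.9 CPM to 11.4, 10.3 and 10.2 CPM (log2 fold change -0.74). It was picked for its promoter and not by the rule for named genes, and the shared letters describe these windows only.

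Aminoacyl-tRNA synthetases, which load amino acids onto tRNAs and several of which are ATF4 targets, moved the same way with smaller steps. Of 36, 11 fell and 1 rose, with a median of -0.10. Aars (alanine) fell from 100.0, 98.6 and 97.9 CPM to 75.5, 72.3 and 76.4 CPM (log2 fold change -0.40, SE 0.0350, adjusted p = 1.30e-06, edgeR), Mars (methionine) from 50.8 ± 0.245 to 38.4 ± 0.571 CPM (log2 fold change -0.40) and Yars (tyrosine) from 34.4 ± 0.623 to 27.1 ± 0.147 CPM (-0.35). Dars (aspartate) was the single member that rose, from 54.3 ± 1.11 to 69.7 ± 4.26 CPM (log2 fold change 0.36). The count of lower members was from 7 (without WT replicate 2 or replicate 2 labelled PHD2cko) to 10 with single libraries left out, and 3 in the fit of all 12 libraries. Aars lies on chromosome 8, and 10 members fell without genes of that chromosome. The mitochondrial Lars2 varied by more between libraries of 1 group than any other member and was not called.

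**Figure D3:**
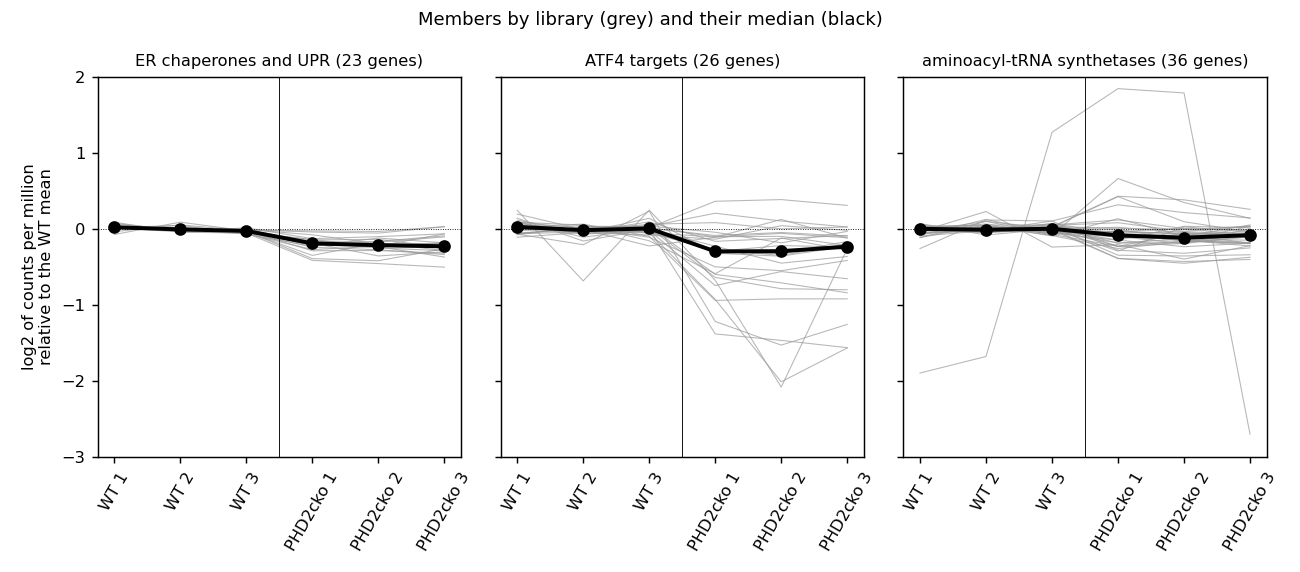
Grey lines are the members of 3 lists, ER chaperones and UPR (23 genes), ATF4 targets (26) and aminoacyl-tRNA synthetases (36), as the log2 of their CPM relative to the WT mean in each library, and black points are the medians over the members. The medians of the libraries labelled PHD2cko lie between -0.227 and -0.189, between -0.294 and -0.231 and between -0.113 and -0.0808, below those of all WT libraries; the grey line that leaves the rest in the last panel is Lars2.

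Amino acid transporters fell more often than they rose. Of 29 tested, 7 fell and 2 rose, and 6 fell without genes of chromosome 8. Beside Slc7a5, Slc6a12, a betaine transporter, fell from 24.5, 19.1 and 21.7 CPM to 11.1, 8.30 and 11.99 CPM (log2 fold change -1.04, SE 0.115, adjusted p = 1.31e-05, edgeR), and Slc36a1, which exports amino acids from lysosomes, from 148 ± 3.56 to 127 ± 1.86 CPM (log2 fold change -0.23). Slc6a8, the creatine transporter, rose from 112 ± 1.20 to 140.3 ± 1.30 CPM (log2 fold change 0.33).

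The rest of the protein synthesis machinery moved little. Of 78 ribosomal proteins of the cytosol, 11 rose and 1 fell, and 58 had a log2 fold change above 0, with a median of 0.04. The 1 that fell was Rplp0, a protein of the ribosomal stalk, from 1159, 1125 and 1205 CPM to 497, 474 and 471 CPM (log2 fold change -1.27, SE 0.0353, adjusted p = 1.34e-11, edgeR). In the same libraries Gm8730, a processed pseudogene that shares 62.8% of its stretches of 31 bases with Rplp0 transcripts, went from 0.294, 0.00 and 0.0554 CPM to 335, 335 and 361 CPM, so that the split of reads between them is uncertain and the value of Rplp0 alone cannot be read as a level. Among those that rose were Rpl12 (log2 fold change 0.23) and Rpl10a (0.15). The count of higher ribosomal proteins was 6 by the DESeq2 Wald test and ran from 4 to 16 with single libraries left out, with 4 to 7 without WT replicate 1 or 2 or replicate 1 or 2 labelled PHD2cko. It was 0 in the fit of all 12 libraries.

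Of 38 genes of ribosome biogenesis, 4 rose and 0 fell, among them Ebna1bp2 (log2 fold change 0.30). Of 51 initiation factors, 2 rose and 4 fell, with log2 fold changes of 0.14 for Eif4a2 and -0.12 for Eif4g3. Of 77 mitochondrial ribosomal proteins, 1 rose and 1 fell, the latter Mrpl33 (-0.42). Of 44 proteasome genes, 1 rose and 1 fell, the latter Psme4 (-0.18), and of 42 splicing factors of the Srsf and Hnrnp families, 1 rose and 1 fell. These shares were under the 20.6% of all genes, and the 4 higher biogenesis genes were 2 without WT replicate 2 and 2 without replicate 2 labelled PHD2cko. The 4 lower initiation factors were 2 without WT replicate 3 or replicate 1 labelled PHD2cko, and 1 by the DESeq2 Wald test. In the fit of all 12 libraries, Ebna1bp2, Eif4a2, Eif4g3 and Psme4 lost their calls.

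Among genes of lipid handling, more rose than fell. Of 28 genes of lipid uptake, storage and export, 9 rose and 3 fell. Cd36, the receptor that takes up fatty acids and oxidised lipoproteins, was at 152, 134 and 134 CPM in WT and at 379.6, 364 and 342 CPM in libraries labelled PHD2cko, a 2.58-fold difference (log2 fold change 1.37, SE 0.0475, adjusted p = 1.16e-10, edgeR). Plin2, the coat protein of lipid droplets, rose from 351, 343 and 353 CPM to 470.4, 480.2 and 481 CPM (log2 fold change 0.45, SE 0.0274, adjusted p = 3.45e-08, edgeR). Lpl, which frees fatty acids from lipoproteins, rose from 1674 ± 27.1 to 2300.1 ± 121 CPM (log2 fold change 0.46, SE 0.0354, adjusted p = 3.54e-07, edgeR).

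No library of 1 group reached the range of the other in these 3 genes. Pparg, the nuclear receptor known to drive Cd36 and Plin2, rose from 39.0 ± 1.12 to 50.3 ± 1.19 CPM (log2 fold change 0.37, SE 0.0440, adjusted p = 2.77e-05, edgeR). The 3 that fell were Apoc2, Msr1 and Scarb1, 2 of which are scavenger receptors for lipoproteins. Higher members numbered 4 in the fit of all 12 libraries.

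Genes of lipid synthesis moved little as a group. Of 23 genes of cholesterol synthesis, 2 rose and 3 fell, with a median of -0.01, and the smallest p was that of Fdps, which makes farnesyl diphosphate (log2 fold change -0.18), a call lost in the fit of all 12 libraries. Of 20 genes of fatty acid synthesis, 3 fell and 1 rose. Scd1, the desaturase that makes oleate, fell from 55.0, 56.9 and 54.6 CPM to 34.0, 26.8 and 27.9 CPM (log2 fold change -0.91, SE 0.0681, adjusted p = 2.64e-07, edgeR), and Acss2 and Acsl1, which activate acetate and long fatty acids, fell with log2 fold changes of -0.40 and -0.21. Acacb, the acetyl-CoA carboxylase at the mitochondrial surface, rose from 0.529, 0.767 and 0.554 CPM to 5.90, 5.49 and 5.05 CPM, 8.76-fold (log2 fold change 3.13, SE 0.205, adjusted p = 6.79e-08, edgeR). Of 37 genes of fatty acid oxidation and peroxisomes, 4 rose and 2 fell, near the share of all genes, with Abcd3, a peroxisomal fatty acid carrier, at a log2 fold change of 0.54, Slc25a20, the carnitine carrier, at 0.30 and Acaa1a, a thiolase, at -0.21. Without replicate 3 labelled PHD2cko, 2 genes of this list rose.

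The largest log2 fold change of any protein-coding gene tested was in prostaglandin breakdown. Hpgd, which oxidises prostaglandin E2 to an inactive form, was at 0.881, 0.603 and 0.609 CPM in the WT libraries and at 48.2, 45.5 and 48.5 CPM in those labelled PHD2cko, a 67.8-fold difference (log2 fold change 6.08, SE 0.103, adjusted p = 3.12e-14, edgeR). Its log2 fold change stayed between 5.99 and 6.28 with each library left out in turn.

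In its list of 27 genes of eicosanoid synthesis, breakdown and receptors, 6 fell and 4 rose, Hpgd included, and 2 rose without genes of chromosome 8. Alox5, the lipoxygenase that starts leukotriene synthesis, fell from 24.1, 24.4 and 32.2 CPM to 12.9, 10.3 and 12.7 CPM (log2 fold change -1.16, SE 0.113, adjusted p = 3.69e-06, edgeR). The receptors Ptger3 for prostaglandin E2 and Ptgir for prostacyclin fell from 13.3 ± 0.149 to 6.74 ± 0.545 CPM (log2 fold change -0.98) and from 18.7 ± 0.812 to 12.5 ± 0.666 CPM (-0.59). Cyp4f18, a cytochrome P450 known to hydroxylate leukotriene B4, was not on this list and fell from 26.5, 27.2 and 27.0 CPM to 7.17, 6.92 and 7.13 CPM (log2 fold change -1.93, SE 0.0659, adjusted p = 1.15e-10, edgeR). Hpgd and Cyp4f18 are both genes of chromosome 8, as Egln1 is.

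**Figure D4:**
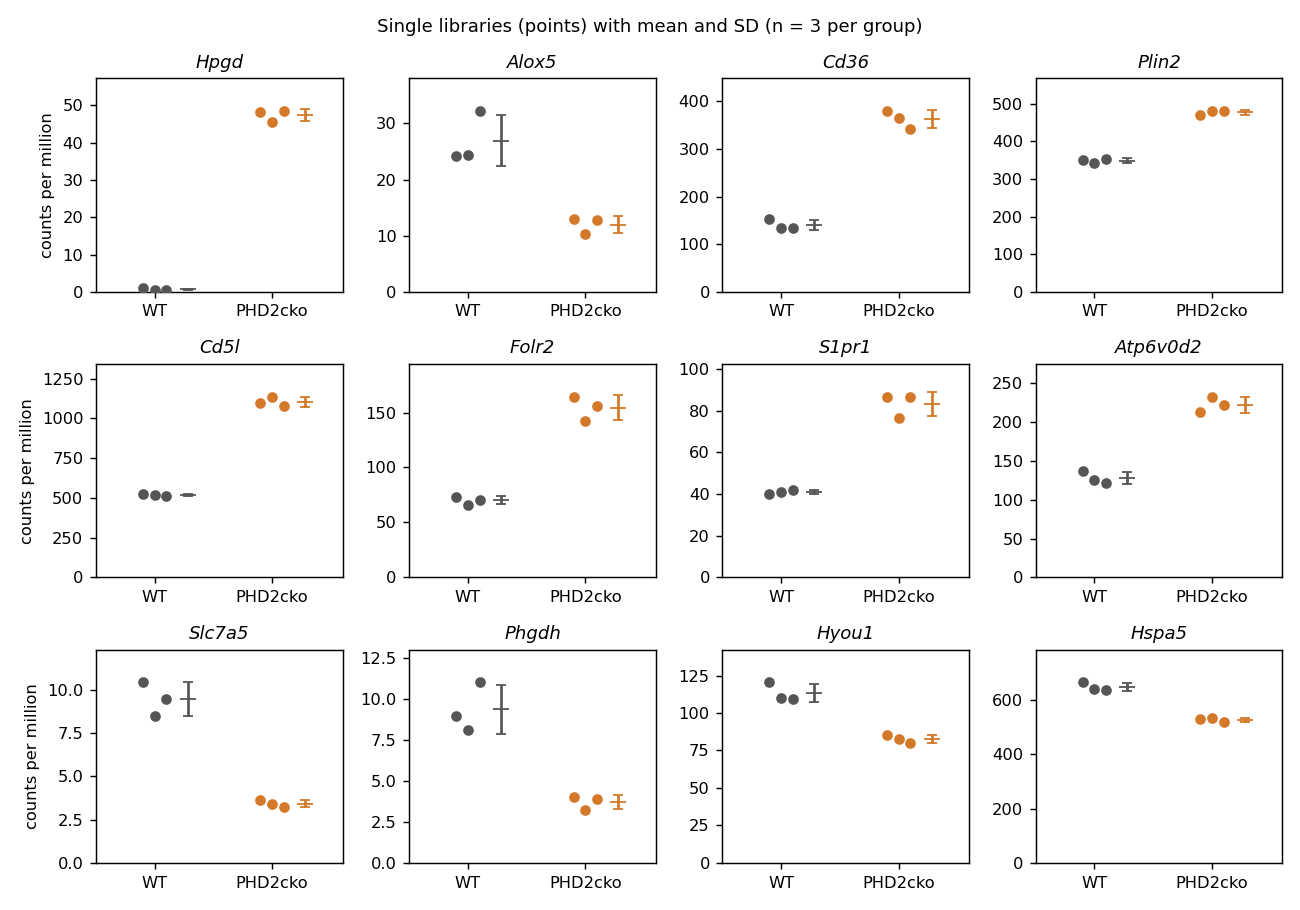
Points are single libraries in CPM on axes that start at 0, and bars give the mean ± SD (n = 3 per group), for Hpgd, Alox5, Cd36, Plin2, Cd5l, Folr2, S1pr1, Atp6v0d2, Slc7a5, Phgdh, Hyou1 and Hspa5. Hpgd goes from 0.603 to 0.881 CPM in WT to 45.5 to 48.5 CPM. In none of the 12 genes do the groups overlap, which was required of those picked for the size of their change. Over all genes tested, the groups did not overlap for 36.1%.

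Lysosomal genes moved in both directions. Of 40 hydrolases and cofactors, 11 rose and 6 fell, with a median of 0.01. Ctsc, a protease that activates granule enzymes, fell from 349, 340.4 and 349 CPM to 228, 227 and 238 CPM (log2 fold change -0.58, SE 0.0264, adjusted p = 1.77e-09, edgeR), and Psap, the precursor of the saposins that assist sphingolipid breakdown, from 12960.2 ± 241 to 10127 ± 487 CPM (log2 fold change -0.36, SE 0.0283, adjusted p = 4.74e-07, edgeR). Ctsl, a cysteine protease, rose from 1032 ± 19.8 to 1289 ± 28.7 CPM (log2 fold change 0.32) and Galns, a sulfatase, from 40.6 ± 1.22 to 53.8 ± 0.308 CPM (0.41).

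The proton pump that acidifies lysosomes, the V-ATPase, had 5 of 19 subunits higher and 1 lower. Atp6v0d2, a subunit typical of macrophages and osteoclasts, rose from 137, 126 and 121 CPM to 213, 233 and 221 CPM (log2 fold change 0.80, SE 0.0429, adjusted p = 1.02e-08, edgeR), and Atp6v1a, a subunit that binds ATP, from 782 ± 13.8 to 923 ± 5.66 CPM (0.24). Of 20 lysosomal membrane proteins, 1 rose (Cd68, log2 fold change 0.18) and 5 fell, among them the iron transporter Slc11a1 (-0.24) and the abundant Lamp1 (-0.14). Of 34 autophagy genes, 6 rose and 1 fell, the same 20.6% as over all genes, led by the receptor Optn, which rose from 16.3 ± 1.10 to 22.1 ± 0.700 CPM (0.44), and Gabarapl1 (0.19), while Atg5 fell (-0.15). In the fit of all 12 libraries, Ctsc, Cd68, Slc11a1, Lamp1 and Atg5 lost their calls. The 6 higher autophagy genes were 2 or 3 without WT replicate 2 or 3 or replicate 1 or 2 labelled PHD2cko. Of the 40 hydrolases and cofactors, 2 were higher and 1 lower in that fit of all 12. Atp6v0d2 is also on the list of osteoclast markers, of which Dcstamp and Mmp9 were higher too, Ctsk (log2 fold change -0.05), Acp5 (0.20) and Ocstamp (0.10) were not called and Calcr was at 0. The part of such cells in this result was not tested.

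Receptors for debris and apoptotic cells split by gene. Of 22 scavenger and efferocytosis receptors and ligands, 6 rose and 5 fell. Cd5l, a secreted scavenger protein of tissue macrophages that affects their survival, was at 524, 516 and 509 CPM in WT and at 1096, 1138 and 1077 CPM in libraries labelled PHD2cko (log2 fold change 1.09, SE 0.0320, adjusted p = 1.86e-11, edgeR). Folr2, the folate receptor found on resident-type macrophages, rose from 73.6, 66.2 and 70.5 CPM to 165, 142 and 156 CPM (log2 fold change 1.14, SE 0.0515, adjusted p = 1.75e-09, edgeR). Axl, a receptor kinase through which macrophages engulf dying cells, fell from 305, 306 and 288 CPM to 165, 174 and 177 CPM (log2 fold change -0.80, SE 0.0335, adjusted p = 7.80e-10, edgeR). Cd5l was 2.14-fold and Folr2 2.21-fold higher and Axl 1.74-fold lower.

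C-type lectins, which bind sugars of microbes and damaged cells, fell more often than they rose. Of 29, 10 fell and 4 rose, with a median of -0.17. Clec4n, or Dectin-2, which binds mannans, fell from 38.4, 35.4 and 37.5 CPM to 12.6, 11.3 and 11.7 CPM (log2 fold change -1.65, SE 0.0610, adjusted p = 1.90e-10, edgeR). Clec4e, or Mincle, which senses glycolipids and dead cells, fell from 109, 101 and 92.3 CPM to 51.3, 38.5 and 39.2 CPM (log2 fold change -1.23, SE 0.0853, adjusted p = 1.25e-07, edgeR). Clec10a, a galactose-binding lectin, fell from 31.3 ± 0.696 to 14.1 ± 1.20 CPM (log2 fold change -1.16, SE 0.0638, adjusted p = 1.27e-08, edgeR).

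The mannose receptor Mrc1 went the other way, from 505 ± 9.52 to 732 ± 28.1 CPM (log2 fold change 0.54, SE 0.0339, adjusted p = 4.91e-08, edgeR), and lost its call in the fit of all 12 libraries. Of the 10 lectins that fell, 9 lie on chromosome 6, which also holds 23 of the 29 tested and 2 of the 4 that rose.

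Paired receptors, families in which inhibitory and activating members share ligands, had 15 of 37 members lower and 5 higher. Cd300lf, an inhibitory receptor for lipids, fell from 26.7, 27.7 and 24.6 CPM to 14.6, 14.8 and 14.3 CPM (log2 fold change -0.85, SE 0.0630, adjusted p = 2.25e-07, edgeR). Siglec1, the sialic acid receptor CD169, fell from 194 ± 12.5 to 133 ± 8.34 CPM (-0.54), and Pilra, an inhibitory receptor, from 8.47 ± 0.316 to 4.10 ± 0.210 CPM (-1.05). Trem2, a lipid-sensing receptor of foamy macrophages, rose from 532, 557 and 559 CPM to 693, 695 and 673 CPM (log2 fold change 0.32, SE 0.0315, adjusted p = 4.04e-06, edgeR). In the fit of all 12 libraries 5 members were lower and 0 higher, so that Trem2 was no longer called, nor was Fcgr2b. Of 9 Fc receptors, 3 fell and 0 rose, led by the inhibitory Fcgr2b, from 293 ± 10.7 to 222 ± 13.3 CPM (-0.40). The other 6, not called, had log2 fold changes above 0, and the median of the list was 0.06. In the fit of all 12 libraries, 0 Fc receptors were lower by edgeR.

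**Figure D5:**
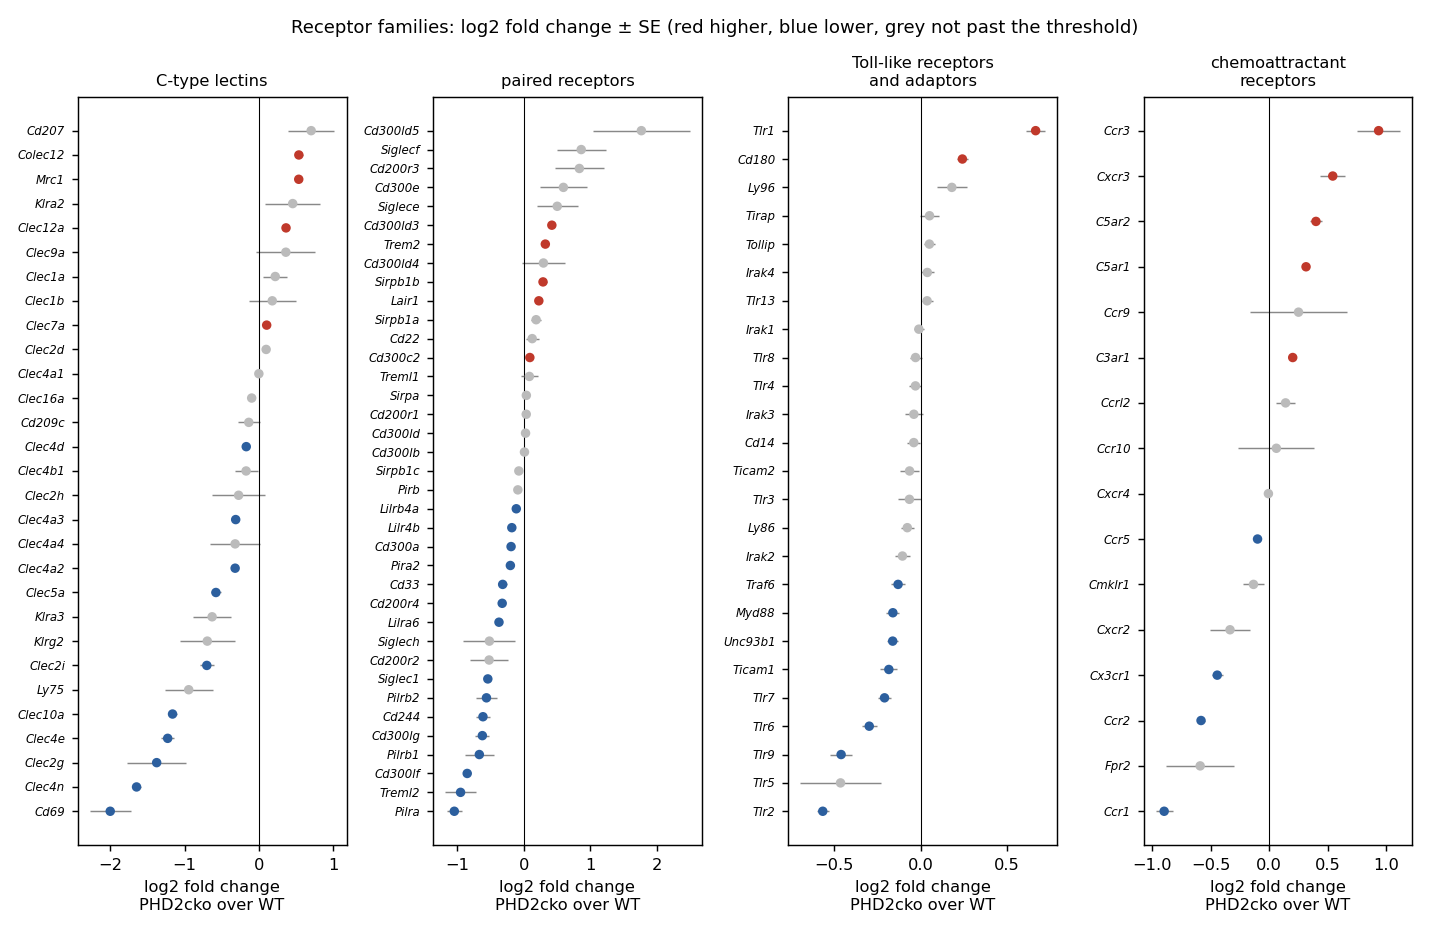
Log2 fold changes (x axis, libraries labelled PHD2cko over WT) with their standard errors for all tested members of 4 receptor lists, red where higher, blue where lower and grey where the threshold was not passed. Lectins and paired receptors have 10 and 15 members lower, and chemoattractant receptors 5 higher and 4 lower.

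Of 25 Toll-like receptors and adaptors, 8 fell and 2 rose. Tlr2, which senses lipopeptides, fell from 175, 171 and 161 CPM to 113, 114 and 116 CPM (log2 fold change -0.57, SE 0.0349, adjusted p = 3.86e-08, edgeR), while Tlr1, its dimer partner, rose from 45.5, 47.8 and 41.8 CPM to 67.6, 71.1 and 75.2 CPM (log2 fold change 0.67, SE 0.0538, adjusted p = 5.46e-07, edgeR). The endosomal Tlr9 fell (log2 fold change -0.46), and the Toll-like Cd180 rose (0.24), the latter not in the fit of all 12 libraries. Tlr4 and Cd14, the receptors for lipopolysaccharide, did not pass the threshold.

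Chemoattractant receptors moved in both directions. Of 16, 5 rose and 4 fell. The chemokine receptors Ccr2, by which monocytes leave the marrow, and Ccr1 fell, from 501, 486 and 469 CPM to 329.6, 319 and 324 CPM (log2 fold change -0.58, SE 0.0307, adjusted p = 8.46e-09, edgeR) and from 33.9 ± 3.18 to 18.2 ± 1.11 CPM (-0.90), and Cx3cr1 from 86.5 ± 4.396 to 63.7 ± 3.40 CPM (-0.44). The complement receptor C5ar1 rose from 221 ± 5.24 to 275 ± 7.10 CPM (0.31). The related C5ar2 and C3ar1, which also rose, were among 5 of 16 complement genes that rose, while 3 fell, led by C3 from 178 ± 7.88 to 112 ± 4.58 CPM (-0.66). Of 17 chemokines, 4 rose and 2 fell: Cxcl10 fell (-1.55), and Pf4, Ccl6 and Ccl4 rose (0.66, 0.16 and 0.32). Cxcl10 is also in the excluded interferon list. In the fit of all 12 libraries, C5ar1, Cx3cr1, C3, Ccl6 and Ccl4 lost their calls.

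S1pr1, the sphingosine-1-phosphate receptor that guides leukocytes out of tissue, was 2.03-fold higher. It was at 40.2, 41.1 and 42.1 CPM in WT and at 86.4, 76.3 and 86.8 CPM in libraries labelled PHD2cko (log2 fold change 1.02, SE 0.0520, adjusted p = 5.86e-09, edgeR). In its list of 15 purinergic, adenosine and sphingosine receptors, 2 rose and 3 fell, and P2ry13, an ADP receptor, fell from 17.1 ± 0.188 to 9.89 ± 0.497 CPM (-0.78).

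Among called genes of cytokine receptors and their signalling, more fell than rose. Of 28 ligands and receptors of the TNF superfamily, 8 fell and 2 rose, with Tnfrsf14 (48.5 ± 2.12 to 34.5 ± 1.24 CPM, log2 fold change -0.49), Tnfsf8 (-1.04), Tnfrsf21 (-0.42) and the death receptor Fas (-0.60) those with the smallest p. Of 37 interleukins and receptors, 9 fell and 6 rose. Of the same 37, 19 had a log2 fold change above 0 and 18 below 0, with a median of 0.02. The common gamma chain Il2rg (-0.37), Il17ra (-0.47) and Il21r (-0.35) were lower and Il7r was higher (0.32). Of 23 genes of the JAK, STAT and SOCS families, 7 fell and 2 rose. Stat2, also in the excluded interferon list, fell (-0.50), Socs3, a feedback inhibitor, fell from 48.2 ± 2.89 to 32.6 ± 1.03 CPM (-0.56), and Jak3 rose from 61.5, 61.3 and 59.9 CPM to 87.5, 91.0 and 91.9 CPM (log2 fold change 0.57, SE 0.0368, adjusted p = 6.24e-08, edgeR). Of 19 Schlafen, Ly6 and Ms4a genes, 12 fell and 1 rose, but 11 of the 19 belong also to the excluded lists. Ms4a6c, of unsettled function, fell from 455 ± 13.2 to 320.2 ± 6.56 CPM (-0.51), as did Ms4a4a (-0.65), Ms4a6b (-0.49) and Ly6a (-0.99). Il2rg, Il7r and Stat2 lost their calls in the fit of all 12 libraries, in which 2 interleukin or receptor genes were lower and 0 higher by edgeR. Without genes of chromosome 8, 4 of them were higher.

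Of 22 growth factors, 6 rose and 4 fell, 2 of the latter without genes of chromosome 8. Gdf15, a stress-induced cytokine and known ATF4 target, fell from 10.4, 10.7 and 11.02 CPM to 2.37, 3.74 and 3.26 CPM (log2 fold change -1.78, SE 0.140, adjusted p = 4.07e-07, edgeR), and Gdf3 from 30.4 ± 0.655 to 16.9 ± 0.172 CPM (-0.85). Spp1, or osteopontin, rose from 963, 859 and 937 CPM to 1252, 1091 and 1181 CPM (log2 fold change 0.35, SE 0.0496, adjusted p = 0.000127, edgeR). Mif, which is also in the excluded HIF list, had a log2 fold change of 1.19. Of 19 semaphorins, plexins and neuropilins, 6 fell and 1 rose, with Sema4a (95.3 ± 0.469 to 60.4 ± 5.24 CPM, -0.65), Plxnd1 (-0.27) and the secreted Sema3c (-1.46) lower and Plxna3 higher (0.73). The fit of all 12 libraries ended the calls of Spp1 and Plxna3.

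Genes of membrane, cortex and cytoskeleton leaned upward. Of 9 annexins, which bind membranes in the presence of calcium, 5 rose and 1 fell. Anxa3 rose from 77.3, 78.7 and 80.3 CPM to 133, 137 and 131 CPM (log2 fold change 0.76, SE 0.0340, adjusted p = 1.64e-09, edgeR), Anxa1, a mediator of resolution of inflammation, from 802 ± 7.68 to 1033 ± 31.6 CPM (0.36), and Anxa2 from 354 ± 6.01 to 419.8 ± 15.0 CPM (0.24), while Anxa6 fell (-0.15). Of 12 S100 proteins and galectins, 4 rose and 1 fell, with S100a11 (0.32) and Lgals3 (0.12) higher and Lgals9 lower (77.4 ± 4.24 to 52.7 ± 2.90 CPM, -0.55). Of 21 tetraspanins, 5 rose, led by Tspan13 (0.47), Tspan3 (0.32), Tspan4 (0.22) and Cd37 (0.17), and 1 fell. Anxa6, Lgals3 and Cd37 were not called in the fit of all 12 libraries, and 2 S100 proteins and galectins rose without WT replicate 1 or 2 or replicate 1 or 2 labelled PHD2cko.

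Of 20 myosin genes, 5 rose and 0 fell, or 25% called against 20.6% of all genes. Myo1e, a single-headed motor of phagocytic cups and podosomes, rose from 202, 203 and 204 CPM to 315, 294 and 303 CPM (log2 fold change 0.58, SE 0.0284, adjusted p = 3.98e-09, edgeR), and the filopodial Myo10 from 45.0 ± 2.28 to 57.9 ± 4.53 CPM (0.36). Of 67 exchange factors and activating proteins of small GTPases, 10 rose and 11 fell, with Fgd6 higher (18.5 ± 0.825 to 38.4 ± 1.87 CPM, 1.06), Arhgap18 and Arhgap25 also higher (0.34 and 0.37) and Arhgap26 lower (-0.58). Of 54 genes whose symbols begin with Rab and a digit, most of them GTPases of vesicle traffic, 9 rose and 3 fell. That is 22.2%, close to the 20.6% of all genes. Those with the smallest p were Rab6b (0.36), Rab43 (-0.22), Rab11a (0.18) and Rab3d (-0.20). Arhgap25 lost its call in the fit of all 12 libraries. With single libraries left out, from 2 to 5 myosin genes rose, 5 only without replicate 3 labelled PHD2cko, and from 5 (without replicate 1 labelled PHD2cko) to 7 Rab genes.

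Adhesion molecules divided. Of 19 integrins, 3 rose and 4 fell: Itgal, the alpha chain of LFA-1, fell from 40.0 ± 0.314 to 20.4 ± 0.158 CPM (-0.97) and Itgb7 from 271 ± 2.73 to 167 ± 3.08 CPM (-0.70), while Itgax, or CD11c, rose from 77.0 ± 1.43 to 112 ± 4.86 CPM (0.54) and Itga9 rose (0.58). Of 18 cadherins and protocadherins, 2 rose and Pcdhac2 fell, or 16.7% against 20.6% of all genes. Pcdh7, 1 of those that rose, went from 31.6 ± 0.531 to 51.8 ± 1.76 CPM (log2 fold change 0.71, SE 0.0458, adjusted p = 5.98e-08, edgeR).

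Matrix proteases and their inhibitors changed often, with 5 of 28 higher and 8 lower. Mmp12, the macrophage elastase, rose from 509.8, 464 and 474 CPM to 796, 768 and 814 CPM (log2 fold change 0.72, SE 0.0381, adjusted p = 9.32e-09, edgeR), and Adam8, a shedding protease, from 294 ± 3.69 to 469 ± 16.9 CPM (log2 fold change 0.68, SE 0.0306, adjusted p = 1.77e-09, edgeR). Mmp14, a membrane-bound collagenase, fell from 20.5, 21.4 and 18.5 CPM to 9.15, 9.60 and 8.78 CPM (log2 fold change -1.14, SE 0.0803, adjusted p = 1.44e-07, edgeR), and Mmp8, also a collagenase, from 116 ± 2.28 to 72.7 ± 4.61 CPM (-0.67). The calls of Adam8 and of Serpinb6a ended in the fit of all 12 libraries. Of 12 cystatins and serpins, 4 rose and 1 fell, with Serpinb6b (0.79) and Serpinb6a (0.26) higher and Serpinb8 lower (-0.52). Of 14 genes of coagulation and fibrinolysis, 4 rose and 4 fell, and Thbs1, or thrombospondin 1, fell from 23.2, 20.7 and 20.9 CPM to 8.60, 8.86 and 9.30 CPM (log2 fold change -1.27, SE 0.0764, adjusted p = 3.11e-08, edgeR), as did the urokinase receptor Plaur (-0.50) and the junctional F11r (-0.69). The 4 higher genes of this list were 2 without WT replicate 3 and 1 in the fit of all 12 libraries.

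Among 216 solute carriers, 22 rose and 34 fell. The called share was 25.9% in this list and 30.6% in that of the ABC transporters, against 20.6% of all genes. Slc2a6, a lysosomal hexose transporter, fell from 83.5, 80.8 and 79.0 CPM to 47.5, 45.0 and 45.8 CPM (log2 fold change -0.81, SE 0.0406, adjusted p = 4.68e-09, edgeR), the nucleoside transporter Slc28a2 rose (0.85), Slc35f6 fell (-0.43), and the lactate exporter Slc16a3, one of the excluded glycolysis genes, rose (1.09). Of 36 ABC transporters, 4 rose and 7 fell, with Abca7 (-0.39) and Tap1 (-0.40, also in the excluded MHC lists) lower and Abcb4 higher (0.46). Calcium channels, pumps and exchangers had 10 of 38 lower and 2 higher: Itpr1, the calcium release channel of the ER, fell from 58.4 ± 0.646 to 40.2 ± 2.95 CPM (-0.53), Mcoln2 (-0.24) and Cacna1a (-0.24) fell, and the mechanosensitive Piezo1 rose from 239 ± 3.59 to 283 ± 3.63 CPM (0.24). Of 19 potassium channels, 3 rose and 1 fell, or 21.1%, near the share of all genes. Kcnn4 (0.49) and Kcnj2 (0.25) were higher and Kcnj10 was lower (-0.70). Mcoln2, Piezo1 and Kcnj2 lost their calls in the fit of all 12 libraries.

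Mitochondrial lists lay on both sides of the 20.6% of all genes. Of 37 subunits of complex I, 2 rose and 3 fell, with Ndufa12 (0.79) and Ndufv3 (0.29) higher and Ndufa4 (-0.23) among the lower. Of 13 genes of complexes II and III, 1 fell and 0 rose. Of 13 of complex IV, 2 rose and 2 fell. The larger of these 2 called falls was that of Cox5a (88.8 ± 0.548 to 72.2 ± 5.18 CPM, -0.30), while a member that was not called had -0.32. Of 15 of the ATP synthase, 0 passed in either direction by edgeR, nor did any have an unadjusted p under 0.05. All 13 mitochondrially encoded genes had a log2 fold change below 0, and 3 fell, with the smallest p for mt-Atp6 (-0.18). This count was 5 by the DESeq2 Wald test and by limma-voom, 6 with no filter beyond 1 count, 1 without WT replicate 1 or replicate 1 labelled PHD2cko, 10 without replicate 3 labelled PHD2cko and 0 in the fit of all 12 libraries. Of 20 genes of the citrate cycle, 5 fell, among them Cs (-0.19) and Fh1 (-0.17), and the cytosolic Mdh1 rose (0.21). Without WT replicate 1, 2 citrate cycle genes fell, and without replicate 2 labelled PHD2cko, 3. In the fit of all 12 libraries, Ndufa4, Cox5a, mt-Atp6, Fh1 and Mdh1 lost their calls.

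Of 27 antioxidant genes and NRF2 targets, 8 fell and 4 rose: Sod2, the mitochondrial dismutase, fell from 80.1 ± 2.35 to 64.2 ± 1.32 CPM (-0.32), and the quinone reductase Nqo1 from 10.5, 7.78 and 10.4 CPM to 4.80, 5.11 and 5.76 CPM (log2 fold change -0.86, SE 0.134, adjusted p = 0.000311, edgeR), while Sod1 (0.16) and Gpx4 (0.14) rose. Of 26 genes of iron and heme, 2 rose and 5 fell, with the iron exporter Slc40a1 (-0.27) lower and Tfrc, the transferrin receptor and a member of the excluded HIF list, higher (0.79). Of 33 genes of the pentose phosphate pathway and nucleotide synthesis, 5 rose and 6 fell, with Taldo1 (-0.21) and Pgd (-0.20) lower and Adssl1 (0.29) higher. Of 40 aldehyde, short-chain and retinol dehydrogenases, 4 rose and 3 fell, or 17.5% against 20.6% of all genes. Dhrs9, a retinol dehydrogenase, rose from 20.5, 20.8 and 20.3 CPM to 39.3, 38.4 and 42.7 CPM (log2 fold change 0.97, SE 0.0551, adjusted p = 1.81e-08, edgeR). Dhrs3 (0.31), Hsd17b12 (0.23) and Aldh7a1 (0.38) were also higher. The 8 lower antioxidant genes were 4 or 5 without WT replicate 1 or 3 or replicate 1 or 2 labelled PHD2cko. The 5 lower iron and heme genes were 3 without WT replicate 1 or replicate 1 labelled PHD2cko. The 5 higher pentose phosphate and nucleotide genes were 3 with any 1 library left out other than replicate 3 labelled PHD2cko, and the 6 lower ones were 0 in the fit of all 12 libraries. The fit of all 12 libraries did not call Sod1, Gpx4, Taldo1, Pgd, Adssl1 or Dhrs3.

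Of 33 macrophage transcription factors, 10 fell and 4 rose. Ets1 rose from 11.2, 11.6 and 12.4 CPM to 21.9, 22.3 and 20.8 CPM (log2 fold change 0.89, SE 0.0679, adjusted p = 3.33e-07, edgeR), Id2 rose (0.36), and Klf4, a factor of monocyte fate, fell from 33.3 ± 1.63 to 20.8 ± 1.13 CPM (log2 fold change -0.67, SE 0.0582, adjusted p = 1.21e-06, edgeR). Of 22 immediate early genes, 6 rose and 6 fell, with Fos (11.1 ± 0.904 to 17.5 ± 0.949 CPM, 0.65) and Egr2 (0.55) higher and Klf2 (-0.36) lower. Of 22 p53 targets, 7 fell and 3 rose, with Plk2 (0.45) and Sesn1 (0.19) higher and the cell cycle inhibitor Cdkn1a (-0.24) and Pmaip1 (-0.38) lower. Of 24 dual-specificity phosphatases and Sprouty genes, 3 rose and 4 fell, with Dusp4 (0.62) and Dusp1 (0.42) higher. Of 10 RGS genes, which switch off G protein signals, Rgs11 and Rgs1 rose, to 12.8 ± 0.358 and 20.3 ± 3.75 CPM (log2 fold change 1.79 and 1.02), and 2 fell. The 4 lower phosphatase and Sprouty genes were 1 or 2 without WT replicate 1 or 2 or replicate 1 or 2 labelled PHD2cko. Dusp1 and Pmaip1 were not called in the fit of all 12 libraries.

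Chromatin genes stood near the background. Of 62 lysine demethylases and methyltransferases, 7 rose and 8 fell, with Suv39h2, a methyltransferase of heterochromatin, lower (8.03 ± 0.546 to 3.33 ± 0.184 CPM, -1.27), the oxygen-dependent Kdm5b (0.42) and Kdm3a (0.27) higher and Kdm7a lower (-0.22). Of 27 histone genes, 5 rose and 2 fell, with Hist1h2bc (0.40) and Hist1h1c (0.38) higher and H2afy (-0.20) and H1f0 (-0.22) lower, and the 5 higher ones were 3 without WT replicate 2 and 2 in the fit of all 12 libraries. Of 15 clock genes, Rora rose (0.33) and Nfil3 fell (-0.26). Kdm7a and Rora lost their calls in the fit of all 12 libraries. Of 373 zinc finger genes with a Zfp symbol, 19 rose and 11 fell, fewer in share than the 20.6% of all genes, and Zfp868 (0.69) and Zfp961 (-0.78) were among those with the smallest p. Their counts ran from 7 to 13 higher and from 4 to 10 lower with single libraries left out, and were 6 higher and 5 lower by the DESeq2 Wald test.

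Several of the largest differences were in genes of low level. Adgrg1, an adhesion G protein-coupled receptor, rose from 0.411, 0.219 and 0.609 CPM to 2.54, 1.87 and 2.74 CPM (log2 fold change 2.52, SE 0.322, adjusted p = 5.28e-05, edgeR). Nes, the intermediate filament nestin, rose from 1.53, 1.04 and 0.775 CPM to 6.01, 5.18 and 4.63 CPM (log2 fold change 2.24, SE 0.220, adjusted p = 4.22e-06, edgeR). Mmp9, a gelatinase of the matrix protease list and one of the osteoclast markers, rose from 0.470, 0.164 and 0.221 CPM to 1.43, 1.19 and 1.23 CPM (log2 fold change 2.16, SE 0.377, adjusted p = 0.000806, edgeR).

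The other low genes that rose were Xlr3b, of 1.93 on the log2 scale, Nxnl1 (1.57) and Col6a1, a chain of collagen VI (2.03). Without WT replicate 1, Col6a1 had a log2 fold change of 1.77 and missed the threshold (adjusted p = 0.0534, edgeR), and without WT replicate 2 its log2 fold change was 3.36. Col6a1 had 3, 12 and 1 counts in WT and 18, 20 and 31 in libraries labelled PHD2cko, and the fibroblast marker Col1a2 had 11, 25 and 6 against 25, 31 and 30 (log2 fold change 0.98, not called), so that WT replicate 2 was the highest WT library for both. The part of fibroblasts in the value of Col6a1 was not tested. Those that fell were Cfap53, a protein of cilia (-2.45), Klk1b11, a kallikrein (-1.94), Pbx4, a homeobox factor (-1.82), Fgfbp3 (-1.58) and Fam171a1 (-1.46). Each of these 8 genes had a mean under 10 CPM in both groups.

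Among the more abundant genes, Hal, which starts histidine breakdown, fell from 142, 144 and 138 CPM to 58.6, 60.2 and 51.1 CPM (log2 fold change -1.33, SE 0.0492, adjusted p = 1.90e-10, edgeR). Cd24a, a sialylated surface protein, fell from 64.1, 64.7 and 67.5 CPM to 26.7, 26.8 and 27.1 CPM (log2 fold change -1.28, SE 0.0441, adjusted p = 1.15e-10, edgeR). Plxdc2, a membrane protein with a plexin domain, fell from 91.4 ± 0.588 to 38.9 ± 1.48 CPM (log2 fold change -1.23, SE 0.0401, adjusted p = 7.23e-11, edgeR).

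Ide, the insulin-degrading protease, fell from 104, 105 and 96.3 CPM to 53.4, 49.9 and 51.1 CPM (log2 fold change -0.98, SE 0.0438, adjusted p = 1.64e-09, edgeR), and Arl5c, a small GTPase, from 53.8 ± 1.97 to 32.3 ± 0.680 CPM (-0.73). Gcn1l1, the activator of the amino acid sensor kinase GCN2, rose from 85.7, 87.3 and 89.0 CPM to 149, 148 and 143 CPM (log2 fold change 0.75, SE 0.0328, adjusted p = 1.42e-09, edgeR).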

How the data were processed

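Poly(A) RNA-seq libraries of BMDMs were grouped by their labels into WT and PHD2cko, with 3 libraries each. The deposited values are estimated counts per gene, which the authors obtained with Kallisto (version not given in the sources used here) on the GRCm38 assembly and deposited as whole numbers without normalization. They contained 32544 gene symbols. All 12 columns matched a labelled sample (0 columns without one). Libraries held 15953423 to 21221219 counts, and genes with few counts are accordingly less precise.

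Counts were filtered with filterByExpr (12282 genes kept), scaled by the trimmed mean of M values (TMM), and tested with the two-sided quasi-likelihood test of edgeR 4.0.16 in R 4.3.3 on the 6 libraries. Genes with a Benjamini-Hochberg adjusted p under 0.05, computed over all genes tested, were called. CPM were taken on the TMM-scaled library sizes. SE is an approximate standard error of the log2 fold change. It was derived from the test, as the absolute log2 fold change divided by the square root of the F statistic. The script was tested on simulated data.

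The 70 gene lists, and the comparison itself, were chosen with earlier results of these data known. The excluded HIF, glycolysis, cell cycle, interferon and MHC lists came from that earlier work. Lists are described by counts and medians without a test. Named genes were those that the labels concern, marker genes, the 10 largest called changes per direction with a mean of at least 1 CPM and again at least 50 CPM (groups without overlap, outside the excluded lists, no predicted or pseudogene symbols), and in each list up to 4 called genes with the smallest p. Symbols were matched to GENCODE vM21 directly (31468) or by an older symbol (514), and 562 were not matched. Some genes, and an allele common to both groups, are not reported here. Promoter sequences were from RefSeq (GRCm38.p6).

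Alternatives were limma-voom (limma 3.58.1), the DESeq2 1.42.0 Wald test, DESeq2 size factors, keeping genes with 10 or more counts in all 6 libraries, keeping those with any count, all 12 libraries in 1 fit, a replicate block and leaving out each library in turn.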

Additional observations from a re-analysis of the deposited data

How the results depend on the processing

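Against 1202 higher and 1332 lower genes, the DESeq2 Wald test called 790 higher and 1007 lower, and a fit of all 12 libraries, in which the fibroblast libraries shared the estimate of spread, called 483 higher and 478 lower. The counts stayed within 1.5 times of the reported ones with limma-voom (1191 and 1343), DESeq2 size factors (1183 and 1361), at least 10 counts in every library (1250 and 1378), no filter beyond 1 count (1410 and 1449) and, chosen after seeing the data, without genes of chromosome 8 (1119 and 1246). Leaving out each library in turn gave 892 to 1065 higher and 1019 to 1241 lower genes. A replicate block gave 1144 higher and 1273 lower genes, but same-numbered libraries of the groups deviated from their group means with correlations of only 0.00097, 0.0183 and 0.0386, so the numbers were not taken to pair the samples, and not every library correlated best with its own number. Of 277 called named genes, 177 kept their call in every planned setting and 239 in every one other than the fit of all 12 libraries, and no named gene changed direction. At 3 counts, a gene stood at 0.141 to 0.188 CPM, below which differences were not detectable. By the DESeq2 Wald test, family counts smaller by over 1.5 times also included higher autophagy (2), ribosome biogenesis (2), pentose phosphate and nucleotide (3) and myosin (3) genes and lower aminoacyl-tRNA synthetase (6) and dual-specificity phosphatase and Sprouty (1) genes. With all 12 libraries fitted, 0 were called by edgeR of the higher and lower cholesterol synthesis and complex IV genes, the lower lipid uptake, complex I and RGS genes and the higher initiation factor, TNF superfamily and calcium channel genes.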

Other observations

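Genes of chromosome 8, which carries Egln1, were called more often than those of the other chromosomes. Of 669 tested, 83 rose and 86 fell (25.3%), against at most 23.5% on any other chromosome. The chromosome held 17 of the 159 genes that differed by at least 2-fold, or 10.7%, with 5.45% of the genes tested. This was 2.54% of its tested genes, against 2.12% on chromosome 6, 2.05% on chromosome 19 and 2.03% on chromosome 18. Among the 17, Armc6, Cyp4f18, Fam129c, Gdf15 and Nxnl1 lie between 70 and 75 Mb, Adgrg1, Ccdc102a and Ciapin1 between 90 and 95 Mb, and Klhdc4 and Slc7a5 between 120 and 125 Mb. Such genes also lay close together elsewhere. Between 30 and 35 Mb of chromosome 19 they were 5 of 25 tested (Ifit genes), and between 90 and 95 Mb of chromosome 10, 3 of 19. Between 70 and 75 Mb of chromosome 8 they were 5 of 89. Egln1 starts at 124908587. The background strain of each group was not compared here, and its part in these differences was not tested.

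Rplp0 (chromosome 5, 115559467 to 115563727), which fell, ends next to Gcn1l1 (115565254 to 115622654), which rose, and Acacb lies on the same chromosome from 114146535 to 114250761. Other processed pseudogenes shifted like Gm8730. Gm9625 rose from 1.65, 0.712 and 1.77 CPM to 75.5, 74.9 and 65.4 CPM. Gm10359 and Gm12671 had the same value in every library, between 0.00 and 0.443 CPM in WT and at 1.32, 1.37 and 45.6 CPM in libraries labelled PHD2cko, so that replicate 3 alone carried the high mean. Rpl27-ps3 had 75, 125 and 23 counts in WT and 0 in each library labelled PHD2cko, which is at least 25.4-fold lower against a floor of 3 counts per library. The way reads were divided among near-identical copies was not tested.

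Of 3 immunoglobulin constant genes tested, 2 were higher and 1 lower (Ighmbp2, which the symbol search for this list also returned, is not an immunoglobulin gene and was not called). Ighg2b was at 0 counts in all WT libraries and at 22, 20 and 19 counts in those labelled PHD2cko, at least 6.63-fold higher against 3 counts per library, and Igkc was at 0 and at 12, 18 and 17 counts, at least 5.10-fold higher. Ighm, the IgM heavy chain, fell from 202, 196 and 194 CPM to 153, 166 and 170 CPM (log2 fold change -0.28). The 7 plasma cell markers summed to 285 to 298 CPM in WT and 233 to 256 CPM in libraries labelled PHD2cko, nearly all of it Ighm and Sdc1, while Jchain and Mzb1 had 3 counts or fewer in every library, and the B cell gene Pax5 was at 0 in all 6 libraries.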
